A study of Homo sapiens with 15 samples.

Results

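The genes described here are 43 human genes of the kinetochore and the spindle assembly checkpoint, taken by symbol from a table of 15510 genes. All 43 were in the table. They comprise 9 genes of checkpoint signalling, 10 of the KMN network that binds microtubules, 4 for the centromeric histone CENP-A and its loading, 13 of the inner kinetochore network, and 7 of the fibrous corona and microtubule coupling. Of these, 42 passed the filter on low counts and were tested. MAD1L1, which encodes the MAD1 protein that carries MAD2 to kinetochores, had 40 reads over all 15 libraries and was not tested. In the deposited annotation, 41.55% of its exon length is shared with a second gene on the same strand.

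Poly(A) RNA of 5 human lines was sequenced, with 3 libraries per line, each from its own thawed vial of cells. Of the oncogene lines, RasV12 is labelled as transformed and carries H-RasV12, MekDD is labelled as weakly transformed and carries MEK-DD, an active MEK, and AKTmyr is labelled as transformed and carries myr-HA-Akt, a membrane-bound AKT. All 3 are also labelled with the plasmids of T53D4, a line called not transformed: hTERT together with the dominant negative p53DD, and cyclin D1 together with the mutant kinase CDK4R24C. ARPE19, the parent of all of them, is an established, untransformed line from human retinal pigment epithelium. There is 1 line per construct, so p-values set a difference against the spread between vials of a line, and independently made lines are not covered.

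A kinetochore is the protein assembly on a centromere to which spindle microtubules attach in mitosis. CENP-A nucleosomes mark the site, the inner network of CENP proteins binds them, and the KMN network (KNL1, the MIS12 complex and the NDC80 complex) binds microtubules from there. At kinetochores without attachment, the kinase TTK (MPS1) and the BUB and MAD proteins form an inhibitor of CDC20 and the anaphase-promoting complex, which delays anaphase until all chromosomes are attached. Most of these genes are transcribed chiefly in late S, G2 and M phase, so their level in bulk RNA also reads how many cells are dividing.

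Reads on genes ranged from 20.63 to 46.55 M per library. The replicate 3 libraries were the shallowest in every line (20.63 to 24.05 M, against 27.39 to 46.55 M in the others). The construct reads matched the oncogene labels: the HRASV12 construct stood at 310.4 ± 30.4 CPM in RasV12 against 20.8 ± 3.69 in T53D4, the MEKDD construct at 753 ± 229 CPM in MekDD, and the AKT construct at 839.5 ± 334 CPM in AKTmyr against 117 ± 16.04 in T53D4 (mean ± SD, n = 3; CPM is counts per 1 M reads on genes, scaled with TMM factors). The libraries labelled T53D4 went against their label for 1 construct pair, so T53D4 below names the label only. Their cyclin D1 construct reads (146 ± 32.1 CPM) and CDK4R24C reads (92.2 ± 11.8 CPM) did not differ from those of ARPE19 by edgeR (log2 -0.41 and 0.38, adjusted p = 0.511 and 0.382), although RasV12 held 2349 ± 121 and 2380.2 ± 23.4 CPM. MekDD, labelled with the same pair, was also far below RasV12, at 269 ± 57.6 and 142 ± 13.7 CPM, against 193 ± 41.6 and 70.7 ± 12.05 CPM in ARPE19. Its CDK4R24C reads passed over ARPE19 (log2 1.01, edgeR adjusted p = 0.000729) and its cyclin D1 reads did not (log2 0.48, edgeR adjusted p = 0.16). AKTmyr held 858 ± 132 and 1005 ± 90.2 CPM of the pair, above the libraries labelled T53D4 (log2 2.56 and 3.45, edgeR adjusted p = 1.06e-05 and 6.36e-08). The p53DD and hTERT construct reads differed between lines as well. Those of p53DD stood at 111 ± 12.4 CPM in RasV12, 32.3 ± 8.36 in MekDD, 58.4 ± 20.1 in AKTmyr, 70.7 ± 20.1 in T53D4 and 0.0098 ± 0.017 in ARPE19. RasV12 exceeded MekDD in both (log2 1.78 and 1.45, edgeR adjusted p = 0.000502 and 0.000262). MekDD lay below T53D4 in both (log2 -1.13 and -0.95, edgeR adjusted p = 0.0221 and 0.0112). The lines compared below thus also differ in both construct pairs, and their part in the results was not tested. Of 10 markers of retinal pigment epithelium, 9 were in the table, with RPE65 at 0 to 0.154 CPM and OTX2 at 44.2 to 109.7 CPM. Markers of other cell types summed to 0.355 to 1.85 CPM in a library.

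Promoters of genes of this kind often carry the letters of the cell cycle genes homology region (CHR), the element bound by MuvB complexes, and CCAAT boxes, which NF-Y binds. RefSeq promoter windows (GRCh38.p14, from 250 bases before to 50 after each start) were found for 36 of the 43 genes, in 42 windows. On either strand, TTTGAA stood in 19 of these windows (18 genes), against 15.2% of all 35116 windows. TTCGAA, which reads the same on both strands, stood in 5 windows (5 genes), against 1.45% of all windows, and at least 1 of these spellings in 23 windows (22 genes), against 16.4%. CCAAT stood in 24 windows (22 genes), against 34.6% of all. CCAAT and TTTGAA can share an end base, and such matches were kept. A match describes letters and not a bound site.

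The 120 bases before the start are printed for 6 genes described below, with CHR and CCAAT letters in capitals as they run on the gene's strand (TTCAAA is TTTGAA on the other strand). ZWINT and BUB1B passed in no comparison of the main test below, so these 6 do not stand for the called genes. CDC20, HJURP, ZWINT and BUB1B held CHR letters there, whereas PMF1, which fell in RasV12 over T53D4, and DSN1, which had the largest rise in RasV12 over ARPE19, held none. The stretches are chr1:43358861-43358980 on the plus strand for CDC20, chr2:233854536-233854655 on the minus strand for HJURP, chr10:56361260-56361379 on the minus strand for ZWINT, chr15:40160949-40161068 on the plus strand for BUB1B, chr1:156212887-156213006 on the plus strand for PMF1 and chr20:36773764-36773883 on the minus strand for DSN1.
CDC20: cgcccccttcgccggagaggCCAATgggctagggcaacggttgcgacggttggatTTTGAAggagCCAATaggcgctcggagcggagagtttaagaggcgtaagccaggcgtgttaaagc
HJURP: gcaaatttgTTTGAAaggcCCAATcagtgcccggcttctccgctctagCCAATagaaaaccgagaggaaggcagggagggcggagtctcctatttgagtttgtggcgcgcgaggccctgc
ZWINT: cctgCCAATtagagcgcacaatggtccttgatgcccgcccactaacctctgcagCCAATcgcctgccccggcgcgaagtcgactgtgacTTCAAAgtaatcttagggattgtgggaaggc
BUB1B: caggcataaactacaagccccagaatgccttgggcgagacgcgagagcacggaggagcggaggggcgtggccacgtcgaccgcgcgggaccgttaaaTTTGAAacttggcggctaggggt
PMF1: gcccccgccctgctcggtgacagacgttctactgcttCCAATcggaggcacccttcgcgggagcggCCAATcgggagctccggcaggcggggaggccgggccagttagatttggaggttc
DSN1: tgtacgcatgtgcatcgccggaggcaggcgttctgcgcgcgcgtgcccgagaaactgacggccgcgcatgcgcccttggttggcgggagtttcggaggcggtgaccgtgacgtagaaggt
CDC20, HJURP and ZWINT each held 1 CHR spelling and 2 CCAAT boxes, and BUB1B held 1 CHR spelling without a CCAAT box. In ZWINT and BUB1B the CHR letters began at positions -31 and -23 from the start.

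Levels between genes are compared here per length only, as CPM per kb of annotated exon averaged over the 5 lines. CDC20, the activator of the anaphase-promoting complex that the checkpoint inhibits, was the highest at 60.96 CPM per kb. ZWINT, which ties the RZZ complex to KNL1, stood at 35.8, SPDL1 (spindly, a dynein adaptor) at 34.8, CENPW at 34.8 and BUB3, the WD repeat partner of BUB1 and BUBR1, at 33.1 CPM per kb. The ranges over the 15 libraries of these 4 genes overlapped (14.9 to 63.1 CPM per kb in ZWINT, 19.1 to 61.2 in BUB3), so their order is not separated. At the low end were KNL1 (4.67 CPM per kb), the inner proteins CENPO (4.29), CENPL (3.80), CENPT (3.74) and CENPC (2.33), NSL1 of the MIS12 complex (2.23), and CENPP (0.572). CENPP shares 39.91% of its exon length with IPPK, CENPO 26.97% with ADCY3, CENPU 14.93% with PRIMPOL, and OIP5 29.31% with both AC087721.2 and NUSAP1 (5737 and 135 reads over all libraries, against 3202 for OIP5). CENPT shares 10.53% with TSNAXIP1, 6.71% with THAP11 and 2.93% with NUTF2, which had 67603 reads against 10221 for CENPT. These partners lie on the opposite strand, and whether strand was used in counting is not given in the sources used here. The other subunits of the complex of NDC80 (20.2 CPM per kb) stood near it at 19.97 for NUF2, 20.7 for SPC24 and 13.6 for SPC25.

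**Figure D1:**
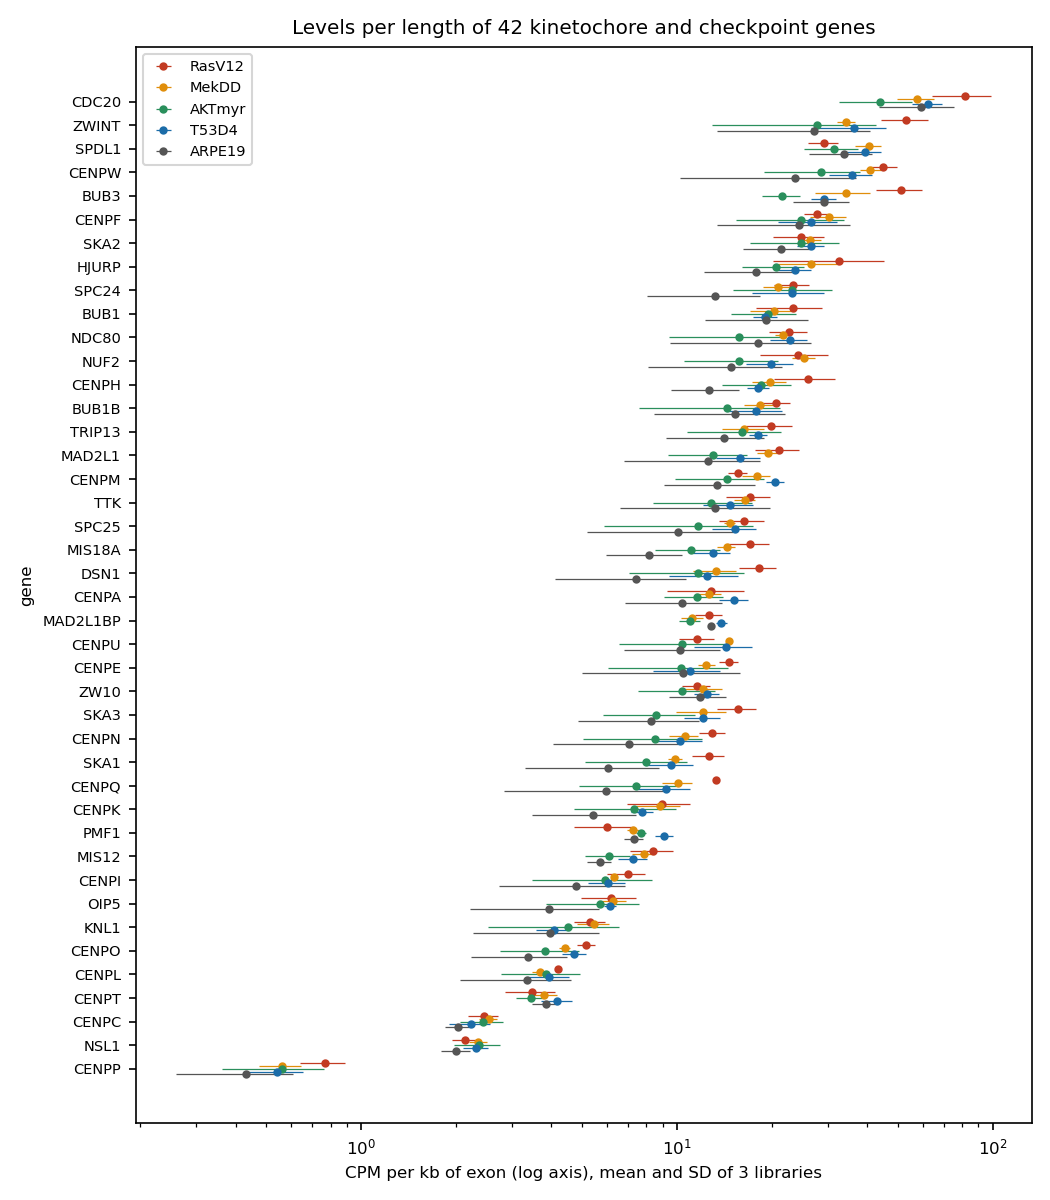
Level of each of the 42 tested genes in CPM per kb of exon (log axis), as mean and SD of 3 libraries per line, ordered by the mean over lines. CDC20 is the highest and CENPP the lowest, and for most genes the ARPE19 and AKTmyr bars are the widest.

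The level of these genes depended on the replicate number as well as on the line. In the scaled view, where each gene's log2 CPM is set against its own mean over 15 libraries, the median of the 42 genes in replicates 1, 2 and 3 was 0.47, 0.17 and 0.16 in RasV12, 0.17, 0.16 and 0.09 in MekDD, -0.48, -0.35 and 0.29 in AKTmyr, -0.02, 0.01 and 0.27 in the libraries labelled T53D4 and -0.84, -0.36 and 0.19 in ARPE19. The median of all 13599 genes lay between -0.01 and 0.02 in every library. ARPE19 and AKTmyr were therefore low in replicates 1 and 2 and near the level of the other lines in replicate 3.

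Within ARPE19, 39 of the 42 genes were highest in replicate 3 and 39 were lowest in replicate 1. Within AKTmyr, 39 were highest in replicate 3. Within RasV12 the order was another one, with 32 of the 42 highest in replicate 1. The spread between the replicates of a line (highest minus lowest log2 CPM, median over the 42 genes) was 0.40 in RasV12, 0.27 in MekDD, 0.85 in AKTmyr, 0.37 in the libraries labelled T53D4 and 1.01 in ARPE19, against 0.35 to 0.47 over all genes. In ARPE19 the median of each of the 5 role groups was lowest in replicate 1 and highest in replicate 3. In ARPE19 replicates 1, 2 and 3 it was -0.66, -0.24 and 0.33 for checkpoint signalling, -0.91, -0.41 and 0.11 for the KMN network and -0.83, -0.58 and 0.08 for CENP-A and its loading. The inner network stood at -0.86, -0.47 and 0.13 there and the corona and coupling genes at -0.85, -0.27 and 0.31. In AKTmyr, checkpoint signalling stood at -0.52, -0.51 and 0.21 and the corona and coupling genes at -0.66, -0.26 and 0.34. In RasV12 the groups were less alike, with checkpoint signalling at 0.53, 0.26 and 0.08 and the KMN network at 0.46, 0.10 and 0.19. No test compared the groups.

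Other genes of dividing cells had the same order of replicates in ARPE19 and AKTmyr. In replicates 1, 2 and 3 the median of 12 genes of mitotic entry and proliferation was -0.68, -0.27 and 0.24 in ARPE19 and -0.32, -0.24 and 0.31 in AKTmyr, and that of 13 genes of replication licensing was -0.87, -0.40 and 0.10 in ARPE19 and -1.03, -0.35 and 0.40 in AKTmyr. In RasV12 the proliferation genes stood at 0.36, 0.09 and -0.03, and the licensing genes at 0.37, -0.19 and 0.32, with replicate 2 lowest. The part of these, and of the lower depth of the replicate 3 libraries, in the results below was not tested. In bulk RNA, fewer dividing cells and less RNA of these genes per cell cannot be told apart.

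**Figure D2:**
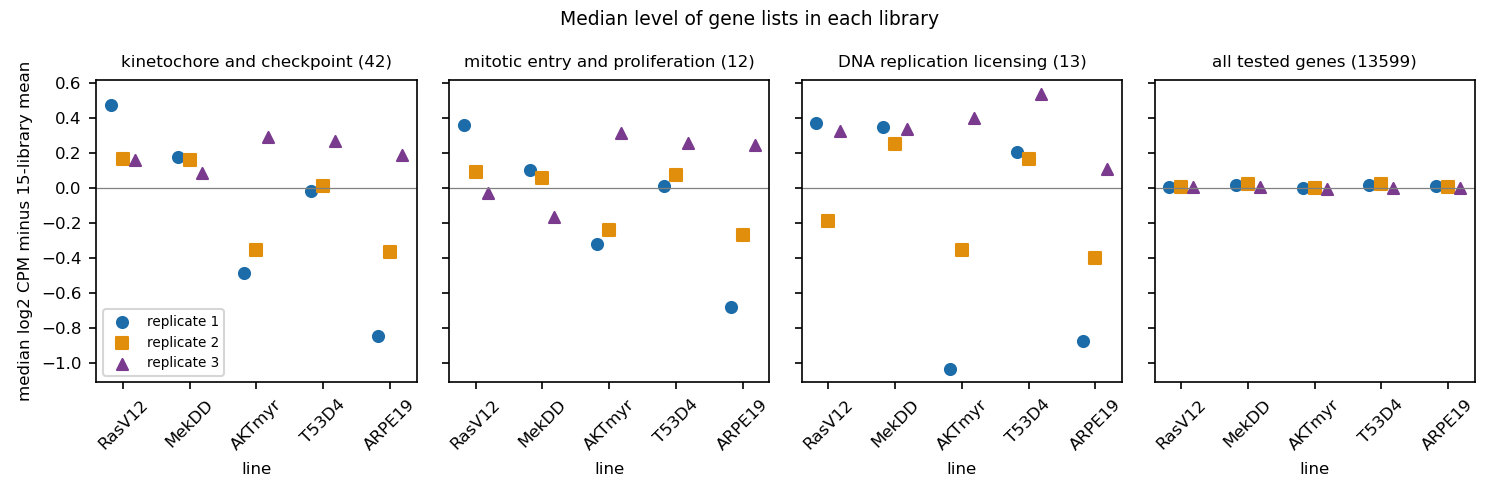
Median level of 4 gene sets in each library (log2 CPM minus each gene's mean over 15 libraries), by line and with a symbol for each replicate number. Kinetochore, proliferation and licensing genes are low in replicates 1 and 2 of AKTmyr and ARPE19 and higher in replicate 3, while all tested genes stay near 0.

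**Figure D3:**
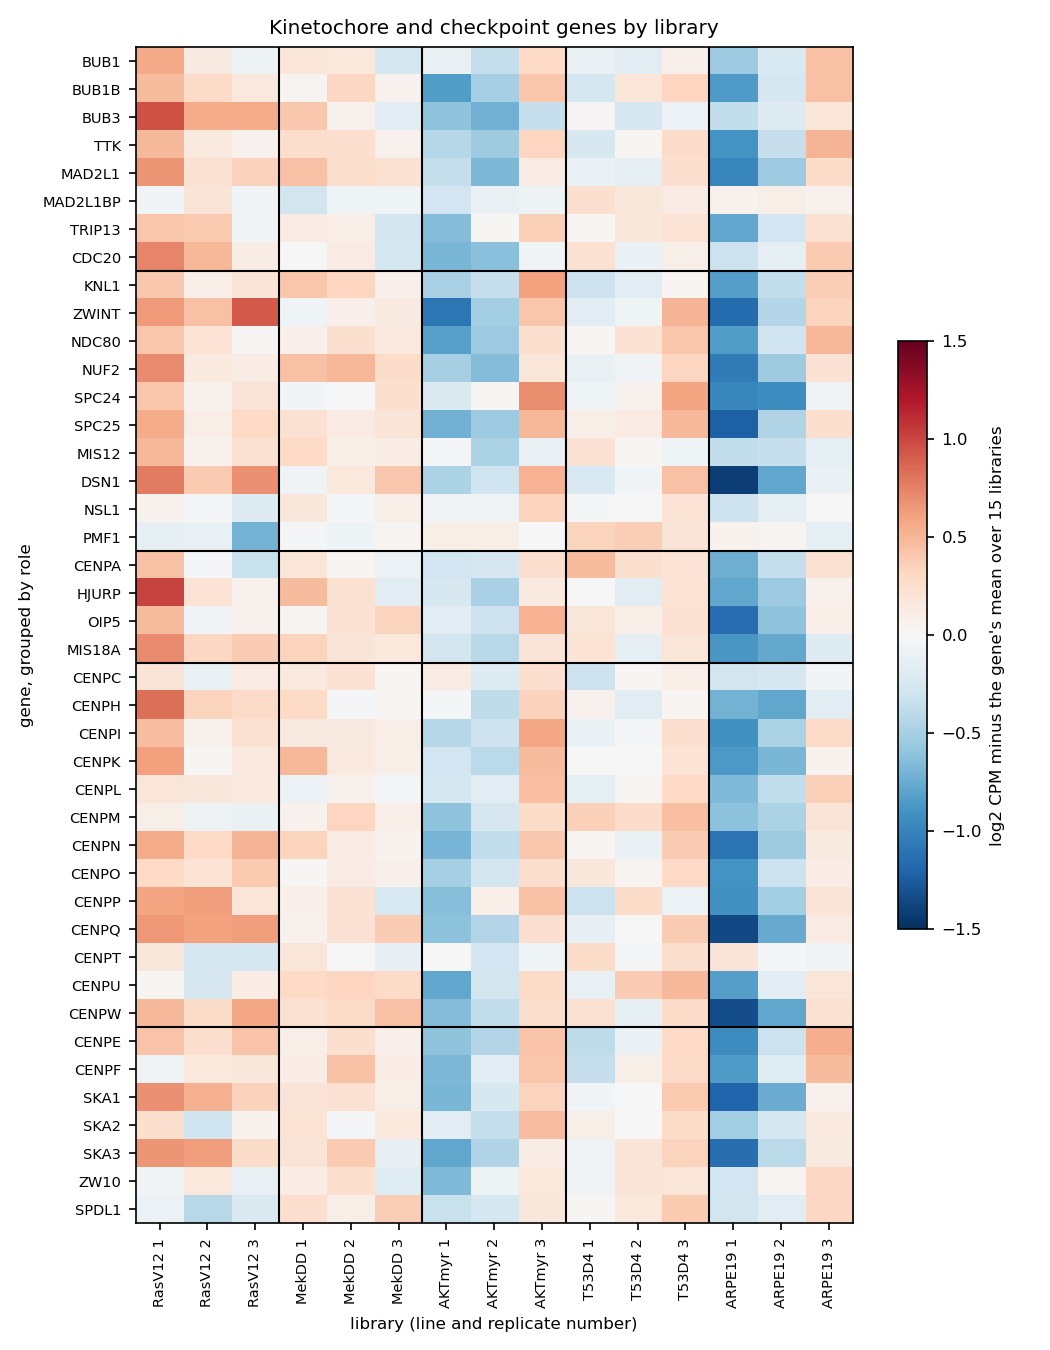
Level of each of the 42 tested genes in each of 15 libraries (log2 CPM minus the gene's mean, colour scale from -1.5 to 1.5), with genes grouped by role in the order checkpoint signalling, KMN network, CENP-A and its loading, inner network, corona and coupling. The darkest blue column is ARPE19 replicate 1, and BUB3 is high in all 3 RasV12 columns.

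Set against the library of the same replicate number, the median log2 difference of the 42 genes in RasV12 over ARPE19 was 1.32, 0.54 and -0.07 for numbers 1, 2 and 3, with 39, 37 and 17 of the 42 higher. For MekDD over ARPE19 it was 0.98, 0.57 and -0.08, for AKTmyr over ARPE19 0.38, 0.03 and 0.09, and for the libraries labelled T53D4 over ARPE19 0.78, 0.41 and 0.12. The difference from ARPE19 was thus present in numbers 1 and 2 for RasV12 and MekDD and near 0 in number 3. By single genes, 17 of 42 were higher and 2 lower in all 3 numbers in RasV12 over ARPE19 (31.1% and 31.0% of all genes), and 16 and 1 in MekDD over ARPE19 (26.3% and 25.5%). AKTmyr over ARPE19 had 22 higher and 6 lower in all 3 numbers (31.9% and 32.9%). The libraries labelled T53D4 had 24 higher and 0 lower in all 3 numbers over ARPE19 (23.9% and 24.0% of all genes). That was the largest share of higher genes among the comparisons with ARPE19. AKTmyr had 0 higher and 20 lower in all 3 numbers against the libraries labelled T53D4 (29.5% and 32.7%). RasV12 over AKTmyr gave 0.90, 0.51 and -0.20, with 41, 40 and 15 of 42 higher, and MekDD over AKTmyr gave 0.69, 0.53 and -0.24, with 41, 40 and 10 higher. In number 3 more of these genes were lower than higher in both of those comparisons. Over the libraries labelled T53D4, RasV12 gave 0.50, 0.12 and -0.13. MekDD gave 0.20, 0.14 and -0.19 over them and AKTmyr gave -0.34, -0.32 and 0.01, while RasV12 over MekDD gave 0.28, -0.03 and 0.12. All-gene medians of the same differences lay between -0.02 and 0.02. Comparisons with the same line below share its libraries.

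Genes were called at a Benjamini-Hochberg adjusted p under 0.05 from edgeR's quasi-likelihood test over 13599 genes. RasV12 against ARPE19 gave the most calls, with 14 of 42 higher and 0 lower, where 14.4% of all genes were called higher and 16.2% lower. The median log2 fold change of the 42 was 0.52, against 0.01 over all genes. MekDD against ARPE19 gave 1 higher and 0 lower (4.61% and 6.27% of all genes; median 0.39). AKTmyr against ARPE19 gave 0 either way (7.98% higher and 8.86% lower; median 0.17). DESeq2 called 1 of 42 in that comparison (21.0% of all genes either way). The libraries labelled T53D4 against ARPE19 also gave 0 either way (0.0368% and 0.118%; median 0.34). With DESeq2 they had 0 called as well (1.41% of all genes either way). The 14 of 42 in RasV12 stood above the background for rises, and the counts in the other lines over ARPE19 did not.

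Against the libraries labelled T53D4, RasV12 had 1 gene higher and 1 lower of 42 (10.8% and 13.6% of all genes; median 0.21), a share under the background in both directions. MekDD had 0 either way (2.27% and 2.83%, median 0.04), with 0 called by DESeq2 (8.29% of all genes). AKTmyr had 0 higher and 1 lower (9.91% and 10.2%; median -0.26). Between the oncogene lines, RasV12 over MekDD gave 1 higher and 0 lower (7.17% and 8.33%), RasV12 over AKTmyr 6 higher and 0 lower (19.6% and 20.7%), and MekDD over AKTmyr 1 higher and 0 lower (12.7% and 13.5%). The share of 6 in 42 is below the background for RasV12 over AKTmyr, while the median of the 42 there was 0.42 and 38 of 42 had a positive value.

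**Figure D4:**
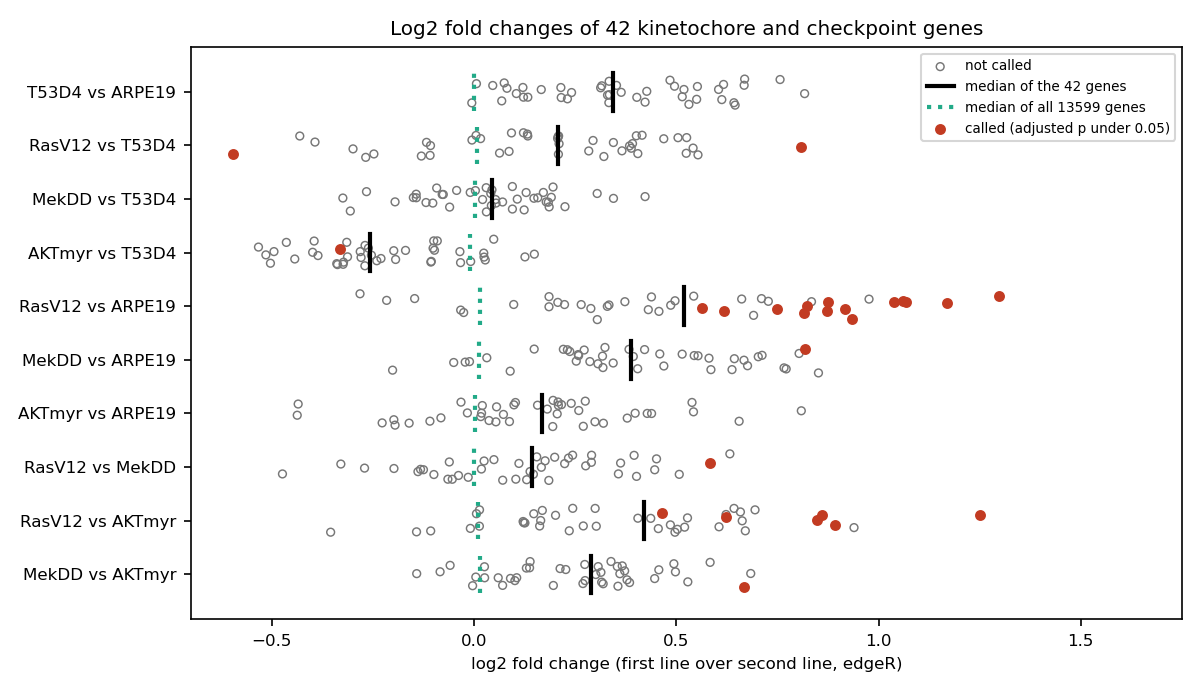
Log2 fold change of each of the 42 genes in the 10 comparisons (first line over second), with called genes filled and the medians of these genes and of all 13599 genes as bars. The median of the 42 lies right of the all-gene median in every comparison except AKTmyr over T53D4, and called genes are most frequent in RasV12 over ARPE19.

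In the 8 comparisons where every same-numbered pair of libraries correlated over 0.1, a fit with the replicate number as a block called more. MekDD over ARPE19 then had 11 of 42 higher (22.5% of all genes called either way), among them MIS18A (log2 0.84, SE 0.17, edgeR adjusted p = 0.0046) and DSN1 (log2 0.91, SE 0.20, edgeR adjusted p = 0.00749). MekDD over AKTmyr had 6 higher (40.3%), which were BUB3, MAD2L1, NUF2, MIS12, CENPU and SPDL1. PRIMPOL, which overlaps CENPU on the opposite strand, had log2 0.56 there (edgeR adjusted p = 0.0227 without the block). AKTmyr over ARPE19 had 3 higher (29.6%), which were DSN1, CENPH and SPC24, and the libraries labelled T53D4 had SPC24 alone above ARPE19 (1.71%; log2 0.84, SE 0.18, edgeR adjusted p = 0.0427). RasV12 over T53D4 had 3 higher (BUB3, DSN1, CENPH) and 2 lower (PMF1, SPDL1) where 35.8% of all genes were called. AKTmyr over T53D4 had 3 lower, which were MAD2L1BP, CENPM and CENPT (34.8%), where THAP11, which overlaps CENPT, had log2 -0.24 without the block. RasV12 over MekDD added SPDL1, lower in RasV12 (log2 -0.47, SE 0.12, edgeR adjusted p = 0.0143), to BUB3 (26.4%), and MekDD over T53D4 stayed at 0 (11.7%). These shares count genes called either way, while all 11 calls in MekDD over ARPE19 and the single SPC24 call were rises. Those 2 counts are therefore not set against a like background here. The other counts with the block were below the either-way shares.

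Leaving out the libraries of 1 replicate number moved the counts of 4 comparisons furthest. Without replicate 3, RasV12 over ARPE19 had 32 of 42 called (26.7% of all genes), RasV12 over AKTmyr 24 (35.2%), MekDD over ARPE19 18 (10.1%) and MekDD over AKTmyr 12 (20.7%). Without the replicate 1 libraries the same comparisons gave 3 (23.2%), 1 (32.7%), 0 (6.58%) and 0 (18.8%), and without the replicate 2 libraries 2 (9.28%), 1 (15.6%), 0 (0.846%) and 0 (4.78%). These shares count genes called either way. Each of the 4 counts was above its share without replicate 3, and each of the 8 was below it without replicate 1 or 2. In the other 6 comparisons the count without replicate 3 differed by at most 2 genes. Leaving out 1 library moved the 4 counts as well. Without ARPE19 replicate 3, RasV12 over ARPE19 had 28 called (31.0% of all genes) and MekDD over ARPE19 13 (11.6%). Without AKTmyr replicate 3, RasV12 over AKTmyr had 20 (41.2%) and MekDD over AKTmyr 7 (26.8%). In the fit without replicate 3, the checkpoint genes called in RasV12 over ARPE19 were BUB1 (log2 0.74, SE 0.18, edgeR adjusted p = 0.0186), BUB1B (0.89), TTK (0.91), TRIP13 (0.91), CDC20 (0.84), MAD2L1 (1.20) and BUB3 (1.05, all log2). In all 3 replicates together, BUB1, BUB1B, TTK, TRIP13 and CDC20 did not pass in that comparison.

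Among the genes of checkpoint signalling, BUB3 (chr10:123154402-123170467, plus strand, hg38) differed most between lines. It had 500.3, 379.9 and 378 CPM in RasV12, 339, 270.2 and 229.7 CPM in MekDD, 169, 156 and 203 CPM in AKTmyr, 259.6, 217 and 242 CPM in T53D4, against 199, 225 and 291 CPM in ARPE19. All 3 RasV12 libraries lay above every library of the other 4 lines, and all 3 AKTmyr libraries lay below every MekDD and T53D4 library. RasV12 exceeded AKTmyr (log2 1.25, SE 0.19, edgeR adjusted p = 0.000166), the libraries labelled T53D4 (log2 0.81, SE 0.18, edgeR adjusted p = 0.00531), ARPE19 (log2 0.81, SE 0.18, edgeR adjusted p = 0.00432) and MekDD (log2 0.58, SE 0.18, edgeR adjusted p = 0.0448). The RasV12 over T53D4 difference within numbers 1, 2 and 3 was 0.95, 0.81 and 0.64, so it was positive in each. MekDD also exceeded AKTmyr (log2 0.67, SE 0.18, edgeR adjusted p = 0.0167), with 1.01, 0.79 and 0.18 within numbers. The call of RasV12 over T53D4 was lost without the replicate 2 libraries (edgeR adjusted p = 0.116).

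Neighbours of BUB3 on the chromosome 10 long arm moved with it in the RasV12 comparisons. The 40 tested genes nearest to it (20 on each side) had a median log2 fold change of 0.39 in RasV12 over T53D4. Of these, 19 were called higher and 1 lower (10.8% and 13.6% of all genes). The median of the same 40 was 0.34 over ARPE19, 0.36 over AKTmyr and 0.28 over MekDD, against 0.10 in MekDD over T53D4. BUB3 itself exceeded these medians. In MekDD over AKTmyr, where BUB3 was called (log2 0.67), the median of the 40 was 0.08. There 9 were called higher and 6 lower (12.7% and 13.5% of all genes). In AKTmyr over T53D4 the median was 0.05, while BUB3 stood at log2 -0.44 and was not called. The part of the region in the BUB3 result was not tested.

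CDC20 had 197, 168 and 128 CPM in RasV12, 118, 129 and 98.8 CPM in MekDD, 73.96, 76.8 and 115 CPM in AKTmyr, 139, 111 and 126 CPM in T53D4, against 95.2, 108 and 156 CPM in ARPE19. RasV12 lay above AKTmyr in every library and overlapped the other lines. It was called in RasV12 over AKTmyr (log2 0.89, SE 0.22, edgeR adjusted p = 0.00561), with 1.41, 1.12 and 0.15 within numbers, so little of the difference stood in number 3. MAD2L1, the MAD2 protein that closes around CDC20, had 137, 101 and 109.9 CPM in RasV12, 117, 104 and 101 CPM in MekDD, 67.5, 53.97 and 93.9 CPM in AKTmyr, 80.4, 77.9 and 103 CPM in T53D4, against 43.7, 59.2 and 104 CPM in ARPE19. RasV12 over ARPE19 was just under the threshold (log2 0.75, SE 0.27, edgeR adjusted p = 0.0498), with 1.65, 0.78 and 0.07 within numbers, and the groups overlapped. That call was lost under 9 of the 15 alternatives, with log2 from 0.39 to 1.20.

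MAD2L1BP (p31comet), which helps TRIP13 open MAD2 again, had 22.4, 26.4 and 22.4 CPM in RasV12, 19.04, 22.05 and 22.02 CPM in MekDD, 18.8, 21.4 and 21.8 CPM in AKTmyr, 27.1, 25.8 and 25.05 CPM in T53D4, against 23.99, 24.4 and 24.1 CPM in ARPE19. AKTmyr fell below the libraries labelled T53D4 with no overlap (log2 -0.33, SE 0.11, edgeR adjusted p = 0.0465). That call was lost under 12 of the 15 alternatives, with edgeR adjusted p from 0.0167 to 0.274 over all of them. Unlike most of these genes, MAD2L1BP kept nearly 1 level over the ARPE19 replicates, at 23.99, 24.4 and 24.1 CPM.

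BUB1, the kinase that phosphorylates histone H2A at centromeres, had 186, 137 and 119 CPM in RasV12, 141, 139 and 104 CPM in MekDD, 116, 97.4 and 153 CPM in AKTmyr, 117, 111 and 132 CPM in T53D4, against 85.8, 107 and 169 CPM in ARPE19. No pair of lines was without overlap for BUB1, and no comparison of it was called. BUB1B, which encodes BUBR1 of the mitotic checkpoint complex, had 103, 90.4 and 83.2 CPM in RasV12, 76.6, 92.5 and 77.3 CPM in MekDD, 41.5, 52.8 and 98.9 CPM in AKTmyr, 62.03, 84.3 and 93.3 CPM in T53D4, against 41.2, 62.3 and 101 CPM in ARPE19. In ARPE19 and AKTmyr replicate 3 lay far above replicate 1, and the lines overlapped throughout. TTK, the kinase that starts the signal, had 92.1, 72.98 and 68.6 CPM in RasV12, 78.98, 78.1 and 68.7 CPM in MekDD, 48.9, 45.4 and 82.5 CPM in AKTmyr, 55.5, 67.3 and 79.8 CPM in T53D4, against 35.4, 51.8 and 93.5 CPM in ARPE19. TRIP13, the ATPase that opens MAD2, had 72.7, 71.4 and 53.2 CPM in RasV12, 59.5, 58.4 and 44.97 CPM in MekDD, 34.8, 55.3 and 70.1 CPM in AKTmyr, 55.7, 61.6 and 62.8 CPM in T53D4, against 31.7, 44.6 and 63.7 CPM in ARPE19. Neither TTK nor TRIP13 was called in any comparison, and in both the ARPE19 libraries ran from the lowest to among the highest of all 15.

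**Figure D5:**
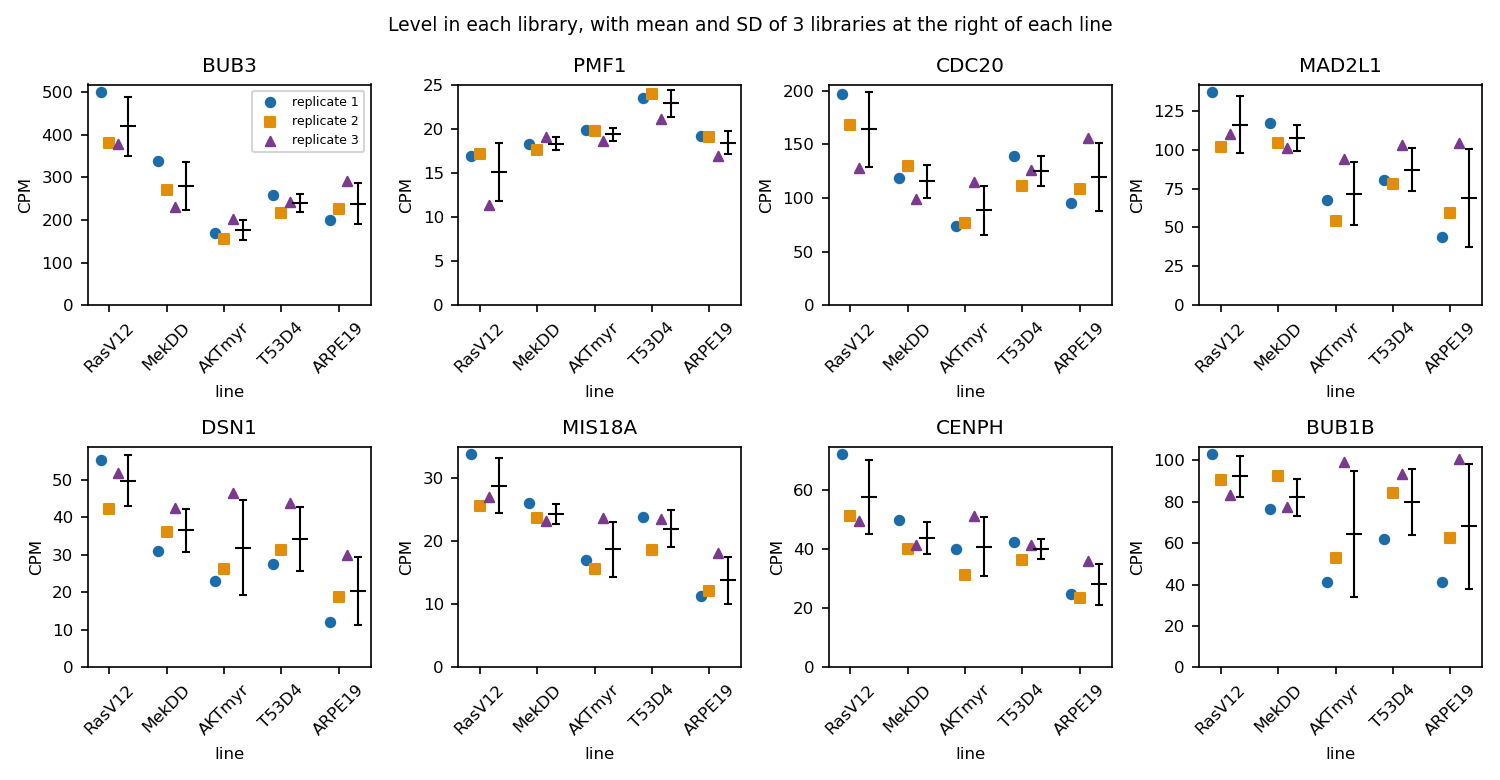
Level of 8 genes in each library (CPM), by line, with a symbol for each replicate number and the mean and SD of 3 libraries at the right of each line. BUB3 is highest in all 3 RasV12 libraries, PMF1 is highest in T53D4 and lowest in RasV12, and the wide bars of MAD2L1, DSN1 and BUB1B in AKTmyr and ARPE19 come with high replicate 3 values.

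In the KMN network, DSN1 of the MIS12 complex (chr20:36751791-36773818, minus strand) had 55.2, 42.1 and 51.9 CPM in RasV12, 31.00, 36.01 and 42.5 CPM in MekDD, 23.1, 26.3 and 46.4 CPM in AKTmyr, 27.6, 31.4 and 43.7 CPM in T53D4, against 12.1, 18.8 and 29.9 CPM in ARPE19. RasV12 and MekDD lay above every ARPE19 library. The rise in RasV12 over ARPE19 (log2 1.30, SE 0.31, edgeR adjusted p = 0.00678) was the largest of the 42 genes and stood in each number, at 2.18, 1.16 and 0.79. Its 40 nearest genes on chromosome 20 had a median of 0.27 in that comparison. Of them, 14 were called higher and 3 lower (14.4% and 16.2% of all genes). The call was lost without the replicate 2 libraries (edgeR adjusted p = 0.117).

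MIS12, which names the complex, had 31.03, 22.9 and 25.8 CPM in RasV12, 27.1, 23.4 and 23.8 CPM in MekDD, 21.8, 15.8 and 20.3 CPM in AKTmyr, 25.6, 22.3 and 21.00 CPM in T53D4, against 16.99, 17.2 and 19.8 CPM in ARPE19. RasV12 exceeded ARPE19 (log2 0.56, SE 0.15, edgeR adjusted p = 0.0119) and AKTmyr (log2 0.46, SE 0.15, edgeR adjusted p = 0.0245) without overlap, and its differences from ARPE19 within numbers were 0.87, 0.41 and 0.38. MIS12 shares 9.53% of its exon length with DERL2 on the opposite strand, which had 20409 reads against 10698 for MIS12. DERL2 had log2 -0.004 in RasV12 over ARPE19 and 0.013 in RasV12 over AKTmyr. SPC24, an inner subunit of the NDC80 complex, had 75.2, 58.7 and 64.3 CPM in RasV12, 54.8, 56.7 and 66.5 CPM in MekDD, 48.4, 56.9 and 91.3 CPM in AKTmyr, 53.6, 59.03 and 85.00 CPM in T53D4, against 28.6, 29.4 and 54.3 CPM in ARPE19. All RasV12 and MekDD libraries lay above the highest ARPE19 library, and RasV12 over ARPE19 was called (log2 0.82, SE 0.27, edgeR adjusted p = 0.0349), with 1.40, 1.00 and 0.24 within numbers.

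PMF1, also of the MIS12 complex (chr1:156212993-156240042, plus strand), ran the other way. It had 16.9, 17.1 and 11.3 CPM in RasV12, 18.3, 17.6 and 19.1 CPM in MekDD, 19.8, 19.8 and 18.6 CPM in AKTmyr, 23.5, 23.99 and 21.2 CPM in T53D4, against 19.2, 19.1 and 16.9 CPM in ARPE19. All RasV12 libraries lay below every MekDD, AKTmyr and T53D4 library, and RasV12 fell below the libraries labelled T53D4 (log2 -0.59, SE 0.14, edgeR adjusted p = 0.00775), with -0.47, -0.48 and -0.90 within numbers. Those T53D4 libraries were also above every ARPE19 library, so the direction rests on libraries that were themselves high. PMF1 shares 23.29% of its exon length with the readthrough gene PMF1-BGLAP on the same strand, which had 16 reads over all libraries. Its 40 neighbours had a median of -0.07. The call was lost without the replicate 2 libraries (edgeR adjusted p = 0.106).

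NDC80, the microtubule-binding subunit of its complex, had 92.3, 79.7 and 69.8 CPM in RasV12, 72.7, 81.3 and 76.2 CPM in MekDD, 39.3, 47.1 and 81.6 CPM in AKTmyr, 70.4, 80.1 and 92.3 CPM in T53D4, against 38.7, 56.1 and 97.9 CPM in ARPE19. KNL1, the scaffold on which BUB1 and BUB3 assemble, had 61.2, 49.4 and 52.9 CPM in RasV12, 61.4, 57.5 and 48.9 CPM in MekDD, 32.9, 36.2 and 70.1 CPM in AKTmyr, 37.1, 41.05 and 47.1 CPM in T53D4, against 25.95, 35.8 and 59.8 CPM in ARPE19. Neither was called in any comparison. For KNL1 the RasV12 and MekDD libraries lay above all libraries labelled T53D4, at log2 0.38 (edgeR adjusted p = 0.388) and 0.42 (adjusted p = 0.529). ZWINT stood at 127 ± 21.6 CPM in RasV12, 66.1 ± 35.4 CPM in AKTmyr and 64.4 ± 32.7 CPM in ARPE19 (SD, n = 3). Its RasV12 libraries lay above all ARPE19 libraries, yet RasV12 over ARPE19 missed the test (log2 0.98, edgeR adjusted p = 0.0605), with 1.79, 0.89 and 0.59 within numbers. The 40 tested genes nearest to ZWINT on chromosome 10 had a median of 0.48 in that comparison. Among them, 14 were called higher and 6 lower (14.4% and 16.2% of all genes). The part of this region in the ZWINT value was not tested.

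Of the genes for CENP-A loading, MIS18A, a subunit of the Mis18 complex that licenses centromeres (chr21:32268228-32279049, minus strand), had 33.8, 25.6 and 27.1 CPM in RasV12, 26.1, 23.7 and 23.2 CPM in MekDD, 17.02, 15.5 and 23.7 CPM in AKTmyr, 23.9, 18.6 and 23.5 CPM in T53D4, against 11.3, 12.1 and 18.1 CPM in ARPE19. The ARPE19 libraries lay below every library of RasV12, MekDD and T53D4. RasV12 exceeded ARPE19 (log2 1.06, SE 0.20, edgeR adjusted p = 0.00146) and AKTmyr (log2 0.62, SE 0.20, edgeR adjusted p = 0.0236), and MekDD exceeded ARPE19 (log2 0.82, SE 0.20, edgeR adjusted p = 0.0203). Within numbers RasV12 over ARPE19 was 1.58, 1.07 and 0.58 and MekDD over ARPE19 1.21, 0.96 and 0.35, positive in each. RasV12 over ARPE19 passed under all 15 alternatives (edgeR or DESeq2 adjusted p from 1.12e-05 to 0.0457).

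HJURP, the chaperone that deposits CENP-A, had 179.6, 102 and 92.4 CPM in RasV12, 123, 104 and 78.7 CPM in MekDD, 75.3, 63.2 and 97.8 CPM in AKTmyr, 88.7, 79.4 and 102 CPM in T53D4, against 51.5, 60.6 and 92.5 CPM in ARPE19. It was called in RasV12 over ARPE19 (log2 0.87, SE 0.28, edgeR adjusted p = 0.0275) although the groups overlapped, and RasV12 replicate 1 stood far above the other 2. The call was lost under 6 of the 15 alternatives, leaving out RasV12 replicate 1 among them, with log2 from 0.36 to 1.32. CENPA, the centromeric histone itself, had 32.3, 23.6 and 18.9 CPM in RasV12, 27.05, 24.4 and 22.4 CPM in MekDD, 19.5, 20.04 and 28.1 CPM in AKTmyr, 33.2, 28.2 and 27.5 CPM in T53D4, against 14.4, 18.5 and 27.8 CPM in ARPE19. CENPA was called in no comparison, and RasV12 over ARPE19 was log2 0.30 (SE 0.24, edgeR adjusted p = 0.362). OIP5, the Mis18 beta subunit, ranged from 2.93 to 9.46 CPM over the libraries and was not called either.

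In the inner network, 5 of 13 genes rose in RasV12 over ARPE19 and 0 fell (14.4% and 16.2% of all genes). CENPH, of the CENP-H/I/K complex, had 72.1, 51.3 and 49.6 CPM in RasV12, 50.01, 40.02 and 41.5 CPM in MekDD, 40.2, 31.2 and 51.3 CPM in AKTmyr, 42.5, 36.4 and 41.3 CPM in T53D4, against 24.8, 23.5 and 35.9 CPM in ARPE19. RasV12 lay above all ARPE19 libraries and above those labelled T53D4, and over ARPE19 it was called (log2 1.04, SE 0.21, edgeR adjusted p = 0.00205) under all 15 alternatives (adjusted p from 3.48e-05 to 0.0495), with 1.54, 1.12 and 0.47 within numbers. CENPQ, of the CENP-O complex, had 23.5, 22.8 and 23.1 CPM in RasV12, 15.6, 17.3 and 19.5 CPM in MekDD, 9.78, 10.99 and 17.9 CPM in AKTmyr, 13.7, 14.99 and 19.5 CPM in T53D4, against 5.83, 8.86 and 16.3 CPM in ARPE19. Its RasV12 level hardly varied and lay above every library of the other 4 lines. CENPQ rose over ARPE19 (log2 1.17, SE 0.31, edgeR adjusted p = 0.0105) and over AKTmyr (log2 0.85, SE 0.30, edgeR adjusted p = 0.0383).

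CENPW, a histone-fold partner of CENPT, had 36.6, 31.6 and 38.9 CPM in RasV12, 30.6, 31.8 and 35.4 CPM in MekDD, 16.5, 20.2 and 31.2 CPM in AKTmyr, 30.6, 23.5 and 31.7 CPM in T53D4, against 10.3, 15.2 and 30.7 CPM in ARPE19. RasV12 over ARPE19 was called (log2 0.93, SE 0.32, edgeR adjusted p = 0.0384), with 1.82, 1.05 and 0.34 within numbers and no overlap. CENPN, which reads CENP-A nucleosomes, had 49.5, 41.2 and 47.8 CPM in RasV12, 42.2, 36.2 and 34.7 CPM in MekDD, 20.7, 26.05 and 44.4 CPM in AKTmyr, 34.3, 31.2 and 43.6 CPM in T53D4, against 15.6, 23.3 and 36.7 CPM in ARPE19. It too was called in RasV12 over ARPE19 (log2 0.88, SE 0.29, edgeR adjusted p = 0.0358), and its opposite-strand neighbour CMC2, which shares 12.81% of the CENPN exon length, had log2 0.94 there (edgeR adjusted p = 0.00882). CENPO rose in the same comparison (log2 0.62, SE 0.22, edgeR adjusted p = 0.0487), between 12.3 and 30.3 CPM over the libraries, and the call was lost under 9 of the 15 alternatives (adjusted p from 0.00811 to 0.274). For CENPN and CENPO the part of overlapping genes was not tested.

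The other 8 genes of the inner network were not called over ARPE19 in RasV12. CENPK (log2 0.73, edgeR adjusted p = 0.0516) and CENPP (log2 0.83, edgeR adjusted p = 0.0543) lay nearest to the threshold, with 1.47, 0.71 and 0.09 within numbers for CENPK. CENPT, the second scaffold that recruits the NDC80 complex, stood at 19.6 ± 3.53 CPM in RasV12, 19.5 ± 1.99 in AKTmyr, 23.7 ± 2.74 in T53D4 and 21.7 ± 2.03 in ARPE19. CENPC, which bridges CENP-A nucleosomes to the MIS12 complex, stood at 20.7 ± 2.23, 20.7 ± 3.23, 18.9 ± 2.75 and 17.3 ± 1.58 CPM in the same lines. In RasV12 over ARPE19, CENPT had log2 -0.15 and CENPC 0.26 (edgeR adjusted p = 0.493 and 0.198).

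Of the corona and coupling genes, SKA1 and SKA3 of the SKA complex, which tracks microtubule ends, were called. SKA1 had 40.9, 36.7 and 32.2 CPM in RasV12, 29.04, 29.7 and 27.00 CPM in MekDD, 15.7, 21.5 and 31.97 CPM in AKTmyr, 24.6, 25.3 and 33.3 CPM in T53D4, against 11.01, 15.1 and 26.4 CPM in ARPE19. RasV12 lay above ARPE19, AKTmyr and MekDD in every library, and over ARPE19 it was called (log2 1.07, SE 0.29, edgeR adjusted p = 0.0121), with 1.89, 1.28 and 0.28 within numbers. SKA3 had 51.3, 49.8 and 39.2 CPM in RasV12, 37.1, 42.4 and 29.5 CPM in MekDD, 18.8, 23.7 and 34.97 CPM in AKTmyr, 31.2, 36.9 and 40.8 CPM in T53D4, against 14.8, 24.4 and 35.4 CPM in ARPE19. RasV12 exceeded ARPE19 (log2 0.92, SE 0.28, edgeR adjusted p = 0.0236) and AKTmyr (log2 0.86, SE 0.28, edgeR adjusted p = 0.0249) with no overlap. Within numbers RasV12 over AKTmyr was 1.44, 1.07 and 0.16, again smallest in number 3.

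The calls in RasV12 over ARPE19 differed in how many of the 15 alternatives kept them. MIS18A and CENPH were lost under 0, DSN1 under 1, BUB3 and CENPQ under 2, MIS12 under 3 and SKA1 under 4. HJURP and SKA3 were lost under 6, SPC24 and CENPN under 7, CENPW under 8, and MAD2L1 and CENPO under 9. MAD2L1, SPC24, CENPN, CENPO and CENPW were each lost when any 1 of RasV12 replicates 1, 2 or 3 or ARPE19 replicates 1 or 2 was left out. Over the alternatives, log2 ran from 0.57 to 1.20 for SPC24, from 0.59 to 1.25 for CENPN and from 0.64 to 1.48 for CENPW. HJURP and SKA1 were lost without ARPE19 replicate 1 or 2, SKA3 without replicate 1 or 2 of either line, and MIS12 without RasV12 replicate 1. In MekDD over ARPE19, MIS18A was lost under 6, among them leaving out replicate 1 or 2 of either line.

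SKA2, the remaining SKA subunit, was not called, at 79.6 ± 14.6 CPM in RasV12 and 68.95 ± 16.5 CPM in ARPE19. CENPE, the kinesin that carries chromosomes to the spindle equator, had 150.3, 133 and 151 CPM in RasV12, 120.02, 132 and 118 CPM in MekDD, 73.8, 82.4 and 151 CPM in AKTmyr, 85.9, 105 and 138 CPM in T53D4, against 58.2, 89.3 and 163 CPM in ARPE19. CENPF, a large corona protein, had 291, 338 and 341 CPM in RasV12, 328, 408 and 327 CPM in MekDD, 190.3, 269.5 and 404 CPM in AKTmyr, 238, 321 and 369.7 CPM in T53D4, against 167, 266 and 421 CPM in ARPE19. Neither was called in any comparison, and in both the ARPE19 replicate 1 library was the lowest and the replicate 3 library the highest of all 15. SPDL1 stood at 139 ± 15.4 CPM in RasV12, 193 ± 18.7 in MekDD and 188 ± 24.6 in T53D4, and its RasV12 libraries lay below all libraries of those other lines. It was not called without the block (RasV12 over T53D4, log2 -0.43, edgeR adjusted p = 0.0937).

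The proteins that work beside the kinetochore were read from further lists, against 14.4% of all genes called higher and 16.2% lower in RasV12 over ARPE19. Of 4 chromosomal passenger genes, 1 rose in RasV12 over ARPE19, which was the kinase AURKB (log2 0.82, SE 0.20, edgeR adjusted p = 0.00722). Of 18 genes of the anaphase-promoting complex and its partners, 6 rose and 0 fell, led by the ubiquitin-conjugating enzyme UBE2C (log2 1.14, SE 0.23, edgeR adjusted p = 0.00245) and the inhibitor FBXO5 (log2 0.92, SE 0.27, edgeR adjusted p = 0.0183). Of 10 genes of the RZZ complex and dynein partners, 4 rose, among them the RZZ subunits KNTC1 (log2 0.76, SE 0.19, edgeR adjusted p = 0.00716) and ZWILCH (log2 0.69, SE 0.22, edgeR adjusted p = 0.0277). Of 15 cohesin and shugoshin genes 4 rose, including CDCA5 (sororin, log2 1.05, SE 0.22, edgeR adjusted p = 0.00256) and SGO1 (log2 0.75, SE 0.26, edgeR adjusted p = 0.039). No gene of these 4 lists fell in that comparison, and none of the lists was tested against the background.

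Proliferation and licensing genes were called in the same comparison about as often as all genes (14.4% higher). Of 12 proliferation genes 2 rose, E2F1 (log2 1.39, SE 0.23, edgeR adjusted p = 0.000599) and CDC25C (log2 0.63, SE 0.22, edgeR adjusted p = 0.0429), and of 13 licensing genes 2 rose, CDT1 (log2 1.02, SE 0.18, edgeR adjusted p = 0.000912) and CDC45 (log2 0.96, SE 0.30, edgeR adjusted p = 0.0253). The medians of the 2 lists were 0.37 and 0.62, against 0.52 for the 42 kinetochore and checkpoint genes. In RasV12 over T53D4, 4 of the 18 anaphase-promoting complex genes rose and 1 fell (10.8% and 13.6% of all genes), with CDC27, a core subunit of the complex, among those that rose (log2 0.68, SE 0.14, edgeR adjusted p = 0.00355). MYBL2, the MuvB partner that activates late cell cycle genes, fell there (log2 -1.10, SE 0.21, edgeR adjusted p = 0.0017) and in MekDD over T53D4 (log2 -0.78, SE 0.21, edgeR adjusted p = 0.0477). AKTmyr over T53D4 had 3 of 13 licensing genes lower (10.2% of all genes), with CDT1 first (log2 -0.99, SE 0.18, edgeR adjusted p = 0.0025).

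Spread over the libraries was also read by CHR letters in the promoter windows. CCAAT was not used for this split, and genes without CHR letters such as PMF1 and MIS12 hold it. Over the 15 libraries, highest minus lowest log2 CPM had a median of 1.38 in 22 tested genes with CHR letters and 1.47 in 13 without. ARPE19 replicate 3 minus replicate 1 had a median of 1.24 in the genes with the letters and 0.93 in those without, with ranges from 0.01 to 1.57 and from -0.24 to 1.48. These are descriptions with no test, and the difference within ARPE19 is that of 1 pair of libraries.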

How the data were processed

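Per the labels' protocols, poly(A) RNA was made into directional libraries and sequenced on paired ends. The submitters' processing notes name HISAT2 2.1.0, featureCounts 1.6.4 and build hg38, among other tools, and whether counting used strand is not given in the sources used here. The deposited unit is the raw read count per gene, as the authors made it. The table has 15517 rows, 7 of which are constructs and stayed out of library sizes, and rows under 10 reads in all are not in it. The normalised and log tables were not used.

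Members and lists were chosen with earlier results of these data known. Genes were filtered with filterByExpr (minimum count 10), scaled with TMM factors (0.958 to 1.0644) and tested with edgeR 4.0.16 (R 4.3.3, quasi-likelihood) on all 15 libraries with the line as factor, in 10 comparisons, with Benjamini-Hochberg adjustment over 13599 genes. Log2 CPM used a prior count of 2. Library depth was 20.63 to 46.55 M reads on genes. The fit was tested on simulated data. Named genes were members called in any comparison and 12 further core genes, with up to 3 called genes of each other list.

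Deviations from line means correlated between same-numbered libraries at r from 0.01 to 0.72 (median 0.34, 28 of 30 pairs over 0.1), and all 15 libraries correlated best with their own number. In 8 comparisons every same-numbered pair was over 0.1. In RasV12 over ARPE19, r was 0.235, 0.298 and 0.01 for numbers 1, 2 and 3. In RasV12 over AKTmyr it was 0.251, 0.336 and 0.027, so in these comparisons number 3 alone was under 0.1. Alternatives were a replicate block, DESeq2 1.42.0, RLE factors, no filter, each pair of lines alone, construct rows in the library sizes, and each library or number left out.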

Additional observations from a re-analysis of the deposited data

Results flagged for a closer look

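For 6 genes the difference from T53D4 itself differed between oncogene lines, by edgeR's test of 1 line over the other. In RasV12 over AKTmyr these were BUB3 (log2 1.25), CDC20 (0.89), SKA3 (0.86), CENPQ (0.85), MIS18A (0.62) and MIS12 (0.46). BUB3 also differed in MekDD over AKTmyr (log2 0.67) and in RasV12 over MekDD (0.58). Of these, BUB3 in RasV12 over AKTmyr passed under all 15 alternatives, with adjusted p from 1.72e-09 to 0.0213. CDC20 was lost without the replicate 1 or the replicate 2 libraries, and the other 4 genes were lost under 5 to 7 alternatives each. The BUB3 values of MekDD over AKTmyr and of RasV12 over MekDD were lost under 5 and 9 of the 15.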

How the results depend on the processing

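Of the values for single genes called in any comparison or added by an alternative, 0 turned round in direction, 124 lost the call and 185 gained one, with 1431 on the same side. Counts of called members were less steady. With the replicate block they were 1 for T53D4 over ARPE19 (0 without it), 5 for RasV12 over T53D4 (2), 3 for AKTmyr over T53D4 (1), 11 for MekDD over ARPE19 (1), 3 for AKTmyr over ARPE19 (0), 2 for RasV12 over MekDD (1), 6 for MekDD over AKTmyr (1), 16 for RasV12 over AKTmyr (6; 52.7% of all genes called with the block) and 21 for RasV12 over ARPE19 (14; 43.5%), and it changed no count in MekDD over T53D4. The block added ZWINT (edgeR adjusted p = 0.00247), NUF2, SPC25, OIP5, CENPI, CENPK and CENPP to RasV12 over ARPE19, where the number 3 libraries hardly correlated (r 0.01). DESeq2 gave 3 for MekDD over ARPE19 (15.5% of all genes) and 1 for AKTmyr over ARPE19 (21.0%). With each pair of lines alone, RasV12 over T53D4 gave 4 (23.2% of all genes called either way) and RasV12 over MekDD 2 (15.2%). Both counts were below those shares. AKTmyr over T53D4 gave 0 with that pair alone, and RLE factors and no filter also gave 0 there. Leaving out 1 library or 1 number gave 2 to 32 for RasV12 over ARPE19, 1 to 24 for RasV12 over AKTmyr, 0 to 18 for MekDD over ARPE19 and 0 to 12 for MekDD over AKTmyr. It gave 0 to 6 for AKTmyr over ARPE19 (12.9% of all genes where it was 6). RasV12 over T53D4 had 0 to 3 (16.9% where it was 3) and AKTmyr over T53D4 0 to 3 (19.4% and 9.83% where it was 3). RasV12 over MekDD had 0 to 1 (12.8% where it was 1), and the rest had 0 to 0. The cause was not tested. With 3 libraries per line and a within-line spread near 1 log2 unit in ARPE19, a difference from ARPE19 that missed the threshold is not shown to be absent.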
